A study of Homo sapiens with 12 samples.

Results

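Respiratory complex I, the NADH:ubiquinone oxidoreductase, was followed through the transcripts of its nuclear genes in C4.2B cells, an established castration-resistant prostate cancer line. The members were the gene symbols of the count files that begin with NDUF, go on with A, B, C, S or V and any further letters, and end in a number. There were 42 such genes among 23228 listed: 38 subunit genes and 4 NDUFAF genes, which encode factors that help to assemble the enzyme. The rule itself used no measured value, but the members were chosen with earlier results of these data known. It takes in NDUFA4, whose product is now counted as a subunit of complex IV, and it leaves out assembly factors that carry other names, which were read as a separate list. No symbol of a mitochondrially encoded complex I subunit was among those analysed.

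Complex I takes electrons from NADH in the matrix, passes them along iron-sulfur clusters in its peripheral arm to ubiquinone, and pumps protons through its membrane arm. Its core subunits carry out this chemistry, its accessory subunits stabilise the arms, and assembly factors build the intermediates and then leave. In tumor cells it is the main entry of electrons from NADH into the respiratory chain and regenerates NAD+ for the TCA cycle.

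The 4 arms had 3 libraries each, named A, B and C. The DMSO arm received vehicle, the GDC arm 0.5 µM GDC-0941, which inhibits PI3K, the GSK arm 5 µM GSK126, which inhibits EZH2, and the COMBO arm both at these doses. EZH2 is a histone methyltransferase that silences genes, and PI3K is a lipid kinase that relays growth factor signals. The final treatment lasted 24 h in all arms, in charcoal-stripped serum at 10%, and cells of the GSK and COMBO arms had by then been kept in GSK126 for 6 days and the others in vehicle. The arms come from 1 cell line, and replicate libraries come from plates seeded from a common culture, so p-values measure the spread between plates, which may be technical. The libraries held 8785218 to 44437751 counts in genes, all 42 members passed the filter on low counts, and the lowest count of any member in any library was 91. Of 10 markers of prostate luminal cells, all were detected in every library (47.7 to 2011 CPM, which are counts relative to the TMM-scaled library size). Their sum was 4029 to 4198 CPM in DMSO, 5861 to 6061 in GDC, 5058 to 5493 in GSK and 6464 to 6950 in COMBO, where 8 were called higher and 1 lower (median log2 change 0.66). Outside this lineage, 9 of 12 markers of fibroblasts, leukocytes and endothelium stayed below 1 CPM in every library. Summed, the 5 fibroblast markers stood at 10.1 to 11.3 CPM in DMSO, 10.8 to 13.8 in GDC, 24.9 to 37.5 in GSK and 27.9 to 46.4 in COMBO, with COL1A1 making up nearly all of it and DCN and LUM at 0 in DMSO and GDC. The 4 leukocyte markers stood at 4.84 to 5.64, 5.57 to 6.28, 6.92 to 9.56 and 7.43 to 9.58 CPM, with CD3E at 0 in every library, and the 3 endothelial markers at 2.74 to 3.25, 4.43 to 6.89, 5.59 to 6.15 and 4.82 to 5.55 CPM, with PECAM1 at 0 in all arms but GSK. The share of reads outside genes went from 14.2% ± 0.481 for DMSO to 15.6% ± 0.268 for GDC, 18.8% ± 0.264 for GSK and 21.8% ± 1.07 for COMBO (SD, n = 3), and the part of this and of the marker levels in the results was not tested.

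Complex I transcripts took a smaller share of gene counts in COMBO than in any other arm. Summed over the 42 members and divided by the total gene counts of the library, their level was 4692, 4893 and 4783 CPM in the DMSO libraries A, B and C, 5015, 5032 and 4895 CPM in GDC, 4785, 5051 and 4921 CPM in GSK and 4096, 4026 and 3862 CPM in COMBO. The 3 COMBO libraries lay below the other 9. The GDC libraries were just above those of DMSO, and GSK overlapped both. The means were 4789 ± 100.3, 4981 ± 74.8, 4919 ± 133 and 3995 ± 120.0 CPM (SD, n = 3). In bulk RNA, fewer transcripts per cell and a shift in the other RNA of the cell cannot be told apart. Divided by TMM effective library sizes instead, the means were 5133, 5210, 4740 and 3708 CPM, so that GSK stood below DMSO. Single genes departed from this order in several ways, as the heat map of single libraries shows.

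**Figure D1:**
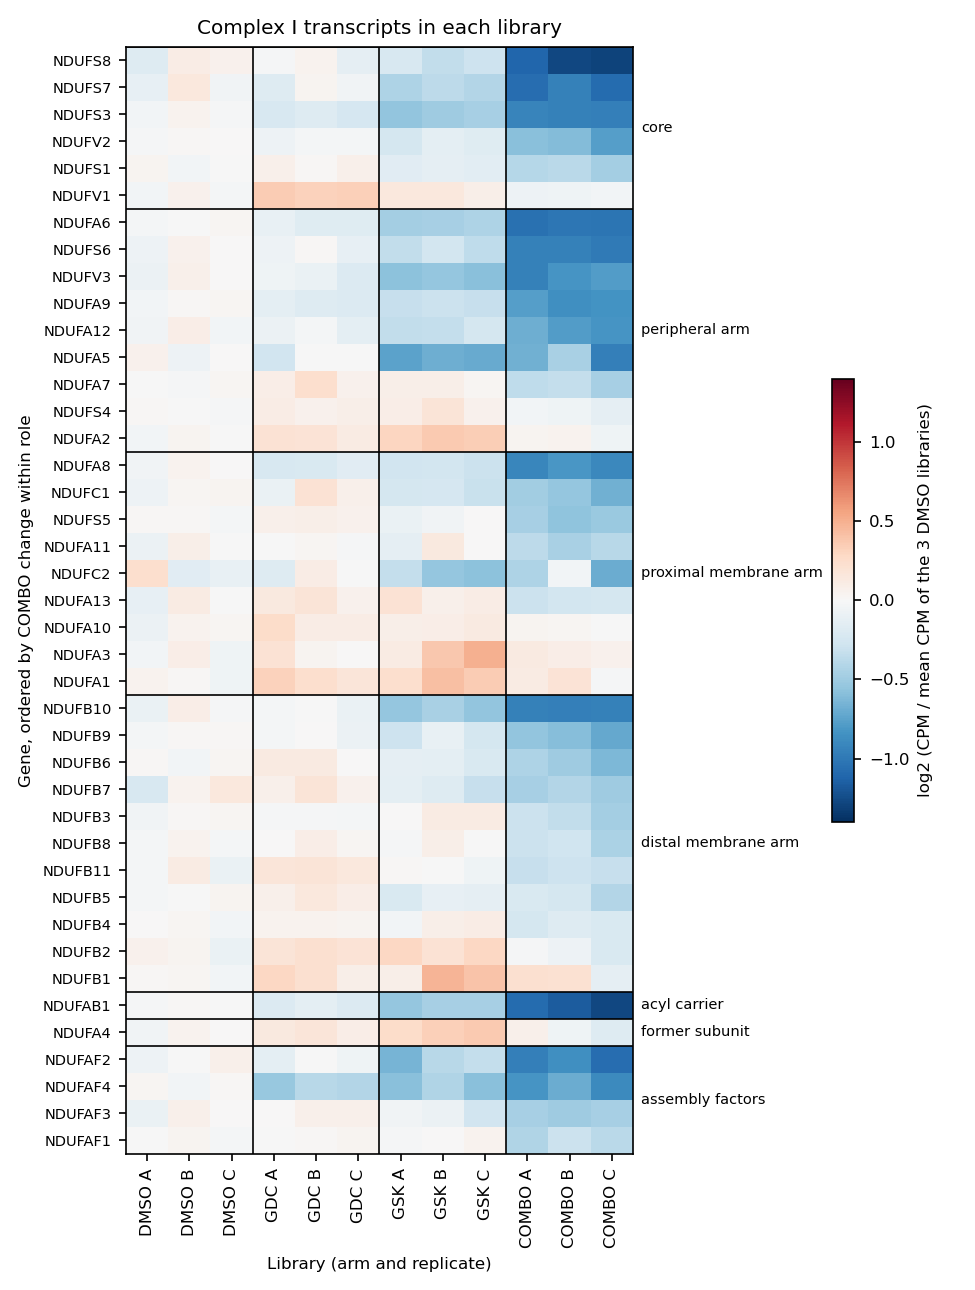
Each row is 1 of 41 complex I genes, grouped by role, and each column 1 of the 12 libraries; color gives log2 of the library's CPM over the mean of the 3 DMSO libraries. COMBO columns are blue for most genes, from NDUFS8 (mean change -1.24) at the top of the core group, while NDUFV1, NDUFA2, NDUFA10 and NDUFB2 stay near white there and are red in GDC or GSK.

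Against DMSO, the combination lowered 32 of the 42 genes and raised none (edgeR quasi-likelihood test, adjusted p under 0.05), where 39.2% of all 14189 tested genes were called lower and 43.3% higher. The median log2 fold change of the members was -0.48, compared with 0.054 over all tested genes. In 34 members all 3 COMBO libraries lay below all 3 DMSO libraries, and in none did all lie above, compared with 39% and 42.9% of tested genes. The 10 genes that did not pass the test were NDUFA1, NDUFA2, NDUFA3, NDUFA4, NDUFA10, NDUFB1, NDUFB2, NDUFC2, NDUFS4 and NDUFV1. With library totals in place of TMM, which shifted the median of all genes upward by 0.21, 28 members were lower and 8 of these 10 were higher (NDUFA1, NDUFA2, NDUFA3, NDUFA4, NDUFA10, NDUFB1, NDUFS4 and NDUFV1).

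GSK126 alone gave a split response. It lowered 24 members and raised 7 of 42 (NDUFA1, NDUFA2, NDUFA3, NDUFA4, NDUFB1, NDUFB2 and NDUFV1), where 35.7% and 40% of tested genes were called lower and higher, and the median of the members was -0.15. With library totals 13 were lower and 18 higher, with a median of 0.0022, so the balance of this arm rests on the scaling. GDC-0941 alone moved few members: 6 rose (NDUFA1, NDUFA2, NDUFA10, NDUFB2, NDUFB11 and NDUFV1) and 6 fell (NDUFA6, NDUFA8, NDUFA9, NDUFAB1, NDUFAF4 and NDUFS3), where 20% of tested genes were called in each direction, and the median was 0.043. The 6 lower calls and that of NDUFV1 passed in all 19 alternatives, while each of the other 5 higher calls was lost in some. Higher calls numbered 1 without DMSO C or GDC A, 2 without GDC B, 3 without DMSO A, GDC C, GSK A, GSK B or COMBO A, and up to 7 without another library. The share of all tested genes called higher was 12.9% without DMSO C and 10.7% with no filter. The median of the members in GDC was -0.023 to 0.035 without 1 library, 0.0013 with DESeq2 and -0.018 with no filter. In GSK all 3 libraries lay below all DMSO libraries for 22 members and above for 10 (36.3% and 40.2% of tested genes), and in GDC for 7 and 13 (24.8% and 25.9%).

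Sorted by their calls in the 3 arms, the members formed 9 patterns. The most frequent, with 17 genes, was no call in GDC and a lower level in both GSK and COMBO, a pattern of 14.7% of all tested genes. A further 6 fell in every arm, as did 16.9% of tested genes. Another 8 fell in COMBO but passed the test in neither single agent (NDUFA7, NDUFA11, NDUFA13, NDUFAF1, NDUFB3, NDUFB4, NDUFB8 and NDUFS5), compared with 4.04% of tested genes. In 4 genes, NDUFA1, NDUFA2, NDUFB2 and NDUFV1, both single agents raised the transcript and the combination left no call, which held for 0.437% of tested genes. NDUFB11 was higher in GDC, without a call in GSK, and lower in COMBO (0.402% of tested genes). NDUFA3, NDUFA4 and NDUFB1 were higher in GSK alone (2.63%), NDUFC2 was lower in GSK alone (2.1%), NDUFA10 was higher in GDC alone (1.04%), and NDUFS4 passed the test in no arm (9.91%).

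Among the 7 core subunits, which hold the flavin, the iron-sulfur clusters and the ubiquinone site, 6 fell in COMBO, with a median of -0.65. The extremes were NDUFS8, which carries iron-sulfur clusters close to the ubiquinone site, and NDUFV1, which binds the flavin and oxidises NADH. Both genes lie on chromosome 11, NDUFS8 at chr11:68030617-68036644 and NDUFV1 at chr11:67605653-67612554 (hg38, GENCODE 44). The bases upstream of their RefSeq start sites, which lie inside these GENCODE spans, are shown because these are the core genes that moved most and least in the combination. None of the 5 motifs searched below (for NRF1, ETS factors, YY1, SP1 and the E-box) occurred in either stretch, so all bases are in lower case (RefSeq, GRCh38.p14, on the strand of the gene).
NDUFS8 chr11:68030431-68030680 (+ strand): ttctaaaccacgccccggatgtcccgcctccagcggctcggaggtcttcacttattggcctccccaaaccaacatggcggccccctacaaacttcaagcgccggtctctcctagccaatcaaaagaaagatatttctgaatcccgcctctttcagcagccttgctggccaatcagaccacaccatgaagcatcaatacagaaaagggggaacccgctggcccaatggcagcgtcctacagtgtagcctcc
NDUFV1 chr11:67606686-67606935 (+ strand): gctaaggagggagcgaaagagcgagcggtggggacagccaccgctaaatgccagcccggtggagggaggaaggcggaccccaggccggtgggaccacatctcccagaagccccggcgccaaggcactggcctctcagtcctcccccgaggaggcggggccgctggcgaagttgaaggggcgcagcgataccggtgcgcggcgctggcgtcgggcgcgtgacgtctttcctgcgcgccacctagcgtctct

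NDUFS8 was at 70.9, 86.3 and 83.9 CPM in the DMSO libraries, 79.3, 82.9 and 73.7 CPM in GDC, 68.6, 63.3 and 65.8 CPM in GSK and 37.2, 33.2 and 32.8 CPM in COMBO (replicates A, B and C in this order here and for the genes that follow). The COMBO libraries were lower than all others, GSK libraries lay below DMSO and GDC, and GDC and DMSO overlapped. In COMBO it fell by 57.6%, and its log2 change was -1.24 (SE 0.071, adjusted p = 2.04e-12). The change was -0.30 (SE 0.070, adjusted p = 0.000623) in GSK, while -0.044 (SE 0.067, adjusted p = 0.636) in GDC did not pass the test. NDUFV1 behaved otherwise, with 189.7, 202 and 191 CPM in the DMSO libraries, 248, 244 and 244 CPM in GDC, 215, 215 and 206 CPM in GSK and 185, 186 and 189 CPM in COMBO. All GDC and GSK libraries were above all DMSO libraries, and the COMBO libraries were just below them. It rose by 0.34 (SE 0.042, adjusted p = 3.65e-06) in GDC and by 0.13 (SE 0.042, adjusted p = 0.0107) in GSK, and the COMBO value of -0.060 (SE 0.042, adjusted p = 0.19) did not pass the test. The GSK call of NDUFV1 passed in 7 of 19 alternatives, and its COMBO value was 0.15 with library totals.

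Between these, NDUFS7, which lines the ubiquinone site, changed by -1.03 in COMBO, and NDUFS3, which is next to it in the peripheral arm, by -0.94. NDUFS3 was also the core gene with the lowest value in GSK (-0.51) and in GDC (-0.22). NDUFV2, the partner of NDUFV1, and NDUFS1, with several iron-sulfur clusters, changed by -0.65 and -0.41 in COMBO, and both passed the test there and in GSK. With library totals the GSK calls of NDUFS1, NDUFS8 and NDUFV2 were lost.

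Of the 9 accessory subunits of the peripheral arm, 7 fell in COMBO, with a median of -0.76. NDUFA6 (chr22:42085526-42090884), a LYR-motif subunit that holds an acyl carrier protein against the arm, was at 120.3, 122 and 125 CPM in the DMSO libraries, 114, 109 and 109 CPM in GDC, 87.9, 88.8 and 90.8 CPM in GSK and 59.3, 60.8 and 60.2 CPM in COMBO. Its levels did not overlap between any pair of arms and went down in the order DMSO, GDC, GSK and COMBO. The change was -0.15 (SE 0.044, adjusted p = 0.00984) in GDC, -0.46 (SE 0.045, adjusted p = 1.45e-08) in GSK and -1.03 (SE 0.045, adjusted p = 2.34e-14) in COMBO. NDUFS6 (chr5:1801407-1816048), a zinc-binding subunit added late in assembly, was at 102, 111 and 108 CPM in the DMSO libraries, 102, 109 and 98.8 CPM in GDC, 84.5, 89.7 and 83.9 CPM in GSK and 55.5, 55.5 and 53.8 CPM in COMBO. GDC overlapped DMSO, GSK was below both, and COMBO was below GSK. It changed by -0.97 (SE 0.052, adjusted p = 6.93e-13) in COMBO and -0.32 (SE 0.052, adjusted p = 1.46e-05) in GSK.

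NDUFA2 (chr5:140638740-140647771), a small subunit with a thioredoxin-like fold, showed no net change in COMBO. It was at 56.6, 59.9 and 57.9 CPM in the DMSO libraries, 67.1, 66.6 and 62.8 CPM in GDC, 71.6, 74.8 and 73.6 CPM in GSK and 59.6, 60.0 and 55.7 CPM in COMBO. The GDC libraries were above DMSO, the GSK libraries were the highest, and the COMBO libraries fell within or close to the DMSO range. It rose by 0.17 (SE 0.051, adjusted p = 0.013) in GDC and 0.33 (SE 0.052, adjusted p = 8.22e-06) in GSK, and stood at 0.0072 (SE 0.051, adjusted p = 0.899) in COMBO, a value whose sign turned under other scalings. NDUFA2 shares 27.4% of its exonic bases with IK and TMCO6, so its counts are uncertain. Of the rest of this arm, NDUFV3, NDUFA9, NDUFA12, NDUFA5 and NDUFA7 fell by 0.86, 0.82, 0.76, 0.67 and 0.38 in COMBO on the log2 scale, and NDUFS4, a subunit that is often mutated in inherited complex I deficiency, was at -0.069 (SE 0.051, adjusted p = 0.212). NDUFA5 was the member with the lowest value in GSK (-0.71) and did not go lower in COMBO (-0.67). Its COMBO libraries ranged from 84.4 to 119 CPM, and NDUFA5 has 12 named pseudogenes that could take or give reads.

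The accessory subunits of the membrane arm moved less than those of the peripheral arm in COMBO, with no test between the lists. Of 9 in the proximal part of the membrane arm, which joins the peripheral arm, 5 fell, with a median of -0.29. Among all tested genes 39.2% were called lower in COMBO. NDUFA8 (chr9:122144058-122159779), which faces the intermembrane space and is held by disulfide bonds, was at 103, 109.8 and 107 CPM in the DMSO libraries, 91.0, 91.5 and 95.6 CPM in GDC, 88.6, 89.1 and 86.0 CPM in GSK and 56.5, 60.7 and 56.7 CPM in COMBO. No arms overlapped, and the levels went down in the order DMSO, GDC, GSK and COMBO. It changed by -0.20 (SE 0.048, adjusted p = 0.00243) in GDC, -0.28 (SE 0.049, adjusted p = 3.85e-05) in GSK and -0.88 (SE 0.049, adjusted p = 1.27e-12) in COMBO. NDUFA10 (chr2:239892450-240025743), a large subunit related to nucleoside kinases, was at 105, 115 and 114 CPM in the DMSO libraries, 133, 119.5 and 119.5 CPM in GDC, 118, 119 and 122 CPM in GSK and 114, 113 and 111 CPM in COMBO. Its GDC and GSK libraries lay above DMSO, and its COMBO libraries were among the DMSO values. Only the GDC change of 0.15 (SE 0.051, adjusted p = 0.0298) passed the test against DMSO, and it did so in 6 of 19 alternatives. COMBO stood at 0.014 (SE 0.051, adjusted p = 0.808), with a sign that turned under other scalings. NDUFC1, NDUFS5, NDUFA11 and NDUFA13 fell by 0.57, 0.51, 0.41 and 0.27 in COMBO, NDUFA1 and NDUFA3 were at 0.11 and 0.098 without passing the test, and NDUFC2, the member with the lowest CPM, was at -0.29 (SE 0.13, adjusted p = 0.0501). Its DMSO libraries ranged from 11.3 to 14.8 CPM and its COMBO libraries from 7.79 to 12.2 CPM, which overlapped.

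Of the 11 accessory subunits of the distal membrane arm, the NDUFB genes, 9 fell in COMBO, with a median of -0.34. NDUFB10 (chr16:1959538-1961975), an intermembrane-space subunit with disulfide bonds, was at 224, 255 and 237 CPM in the DMSO libraries, 234, 238 and 223 CPM in GDC, 164, 174 and 163 CPM in GSK and 123.5, 123.1 and 124 CPM in COMBO. GDC overlapped DMSO, GSK was below both and COMBO below GSK, with the COMBO libraries close together. It changed by -0.51 (SE 0.050, adjusted p = 1.29e-08) in GSK and -0.95 (SE 0.050, adjusted p = 4.35e-13) in COMBO. NDUFB2 (chr7:140690777-140722790), a small single-pass membrane subunit, was at 40.1, 39.4 and 36.1 CPM in the DMSO libraries, 43.6, 45.0 and 43.9 CPM in GDC, 47.3, 44.3 and 47.2 CPM in GSK and 38.1, 36.8 and 33.3 CPM in COMBO. Both single agents lay above DMSO, and COMBO overlapped DMSO. It rose by 0.21 (SE 0.062, adjusted p = 0.0104) in GDC and 0.28 (SE 0.064, adjusted p = 0.000632) in GSK, and COMBO stood at -0.077 (SE 0.062, adjusted p = 0.257), or 0.13 with library totals. The other genes of this arm that fell in COMBO ranged from NDUFB9 (-0.62), another LYR-motif subunit that binds an acyl carrier protein, to NDUFB4 (-0.21). NDUFB1 did not pass the test (0.12).

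NDUFAB1 (chr16:23581014-23596316) encodes the mitochondrial acyl carrier protein, which serves fatty acid and lipoic acid synthesis as well as complex I. It was at 179, 184 and 181 CPM in the DMSO libraries, 159, 165 and 159 CPM in GDC, 124, 131 and 131 CPM in GSK and 86.2, 80.8 and 74.8 CPM in COMBO. The arms went down in the order DMSO, GDC, GSK and COMBO with no overlap. The changes were -0.17 (SE 0.049, adjusted p = 0.00865) in GDC, -0.49 (SE 0.050, adjusted p = 2.40e-08) in GSK and -1.17 (SE 0.050, adjusted p = 1.82e-14) in COMBO, where it fell by 55.5%. NDUFA4 (chr7:10931943-10940153), the complex IV subunit, was at 184, 197 and 192 CPM in the DMSO libraries, 209.6, 215 and 204 CPM in GDC, 228, 241 and 247 CPM in GSK and 200.2, 183 and 169 CPM in COMBO. Its GSK libraries were above all others, GDC was above DMSO, and COMBO overlapped DMSO. It rose by 0.32 (SE 0.055, adjusted p = 2.56e-05) in GSK, while GDC (0.13 (SE 0.054, adjusted p = 0.0628)) and COMBO (-0.054 (SE 0.054, adjusted p = 0.365)) did not pass the test, and with library totals the COMBO value was 0.15. The plot of levels in single libraries sets these genes side by side.

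**Figure D2:**
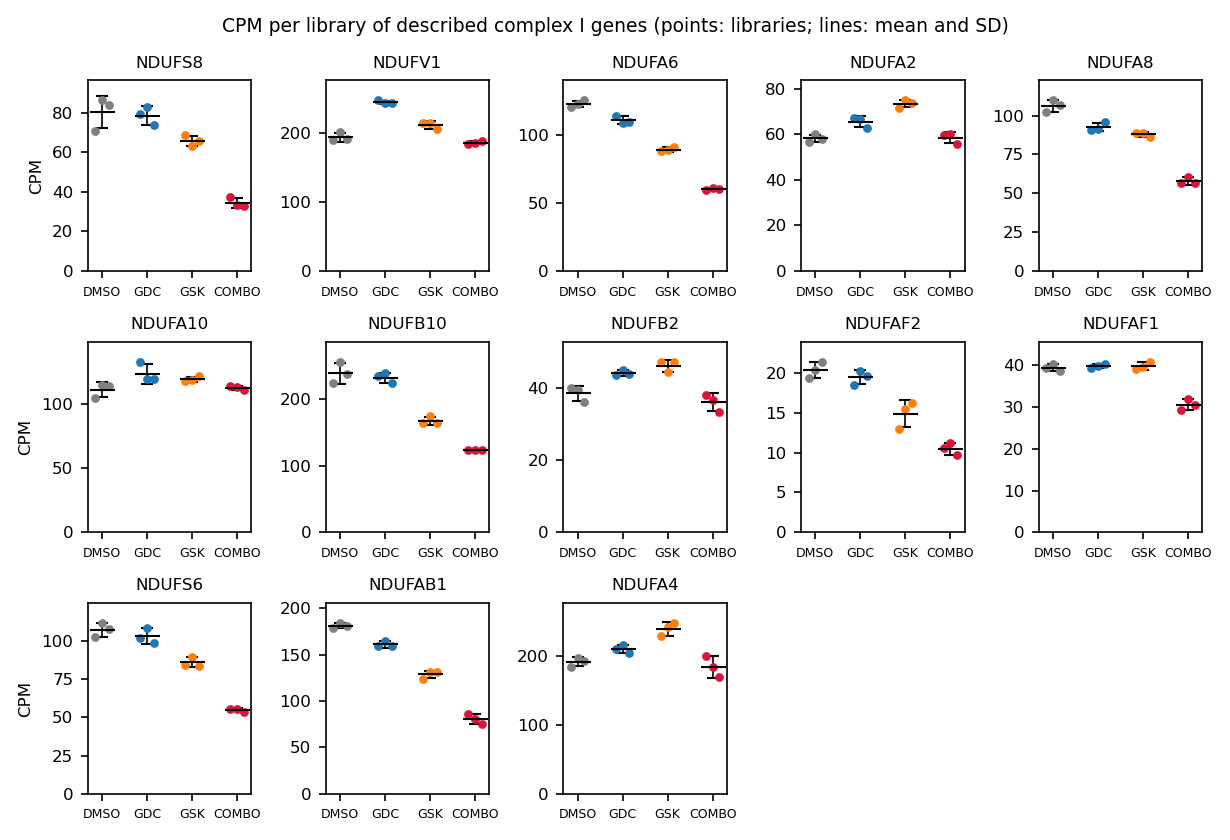
CPM in each of the 12 libraries (points, colored by arm) with the mean and SD of each arm (black lines, n = 3) for 13 complex I genes; axes start at 0. NDUFS8, NDUFA6, NDUFS6, NDUFB10 and NDUFAB1 step down from DMSO to COMBO, while NDUFV1, NDUFA2, NDUFB2 and NDUFA4 rise in GSK and return to the DMSO range or just below it in COMBO.

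All 4 NDUFAF genes fell in COMBO, with a median of -0.64. NDUFAF2 (chr5:60945177-61154531), a paralog of NDUFA12 that holds its place until late assembly, was at 19.4, 20.3 and 21.3 CPM in the DMSO libraries, 18.5, 20.3 and 19.6 CPM in GDC, 13.0, 15.5 and 16.2 CPM in GSK and 10.5, 11.2 and 9.69 CPM in COMBO. GDC overlapped DMSO, and COMBO was below GSK, which was below both. It changed by -0.45 (SE 0.090, adjusted p = 0.000133) in GSK and -0.96 (SE 0.088, adjusted p = 3.17e-09) in COMBO. NDUFAF1 (chr15:41387218-41409403), which works on the early membrane arm, was at 39.3, 40.3 and 38.4 CPM in the DMSO libraries, 39.2, 39.8 and 40.3 CPM in GDC, 39.0, 39.4 and 40.7 CPM in GSK and 29.3, 32.0 and 30.3 CPM in COMBO. The libraries of DMSO, GDC and GSK overlapped, and those of COMBO were below all of them, a change of -0.36 (SE 0.055, adjusted p = 5.71e-06). NDUFAF3 and NDUFAF4, partners that bind each other while the ubiquinone module is built, changed by -0.48 and -0.80 in COMBO. NDUFAF4 was the member with the lowest value in GDC, -0.44 (SE 0.061, adjusted p = 1.24e-05).

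A separate list of 16 assembly factors with other names was measured beside these. In COMBO 15 of 16 fell, with a median of -0.69. TMEM70, a membrane protein that also serves ATP synthase assembly, changed by -1.15 (SE 0.055, adjusted p = 9.73e-14), and C20orf7, the older symbol of NDUFAF5, a factor that modifies NDUFS7, by -1.13 (SE 0.094, adjusted p = 8.17e-10). ECSIT, a partner of NDUFAF1, stood at -1.06 and FOXRED1 at -1.03. NUBPL, an iron-sulfur protein that delivers clusters to the peripheral arm, was the exception (0.097 (SE 0.076, adjusted p = 0.242)).

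To ask whether the agents changed complex I transcripts beyond the sum of their separate effects, COMBO was set against each agent alone, and the interaction was tested, which is the departure of COMBO from the summed single-agent changes on the log2 scale. COMBO was below GDC in 40 members and above it in none (37.9% of tested genes higher and 38% lower), with a median of -0.52. The exceptions were NDUFA3 and NDUFB1. COMBO was below GSK in 38 members and above it in none (19% of tested genes higher and 26.9% lower), with a median of -0.37. Here NDUFA5, NDUFA10, NDUFB1 and NDUFC2 did not pass the test. All 3 COMBO libraries were below all 3 GDC libraries in 38 members (38.3% of tested genes) and below all 3 GSK libraries in 38 (29.9% of tested genes).

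The change with each agent was then set beside its change in the presence of the other. GDC-0941 changed the members by a median of 0.043 on its own (GDC against DMSO) and of -0.37 beside GSK126 (COMBO against GSK), 2 comparisons that share no library. In 39 of 42 members the second value was lower than the first, compared with 8423 of 14189 tested genes. The second value less the first is the interaction itself, so these counts give its sign and are no separate result. The median of 0.043 for GDC-0941 on its own was near 0, and its sign turned in some alternatives. GSK126 changed the members by a median of -0.15 on its own and of -0.52 beside GDC-0941. Over the 42 members, which share libraries and depth, the changes with and without the other agent had a Pearson correlation of 0.37 for GDC-0941 and 0.77 for GSK126, and over all tested genes of 0.48 and 0.91.

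**Figure D3:**
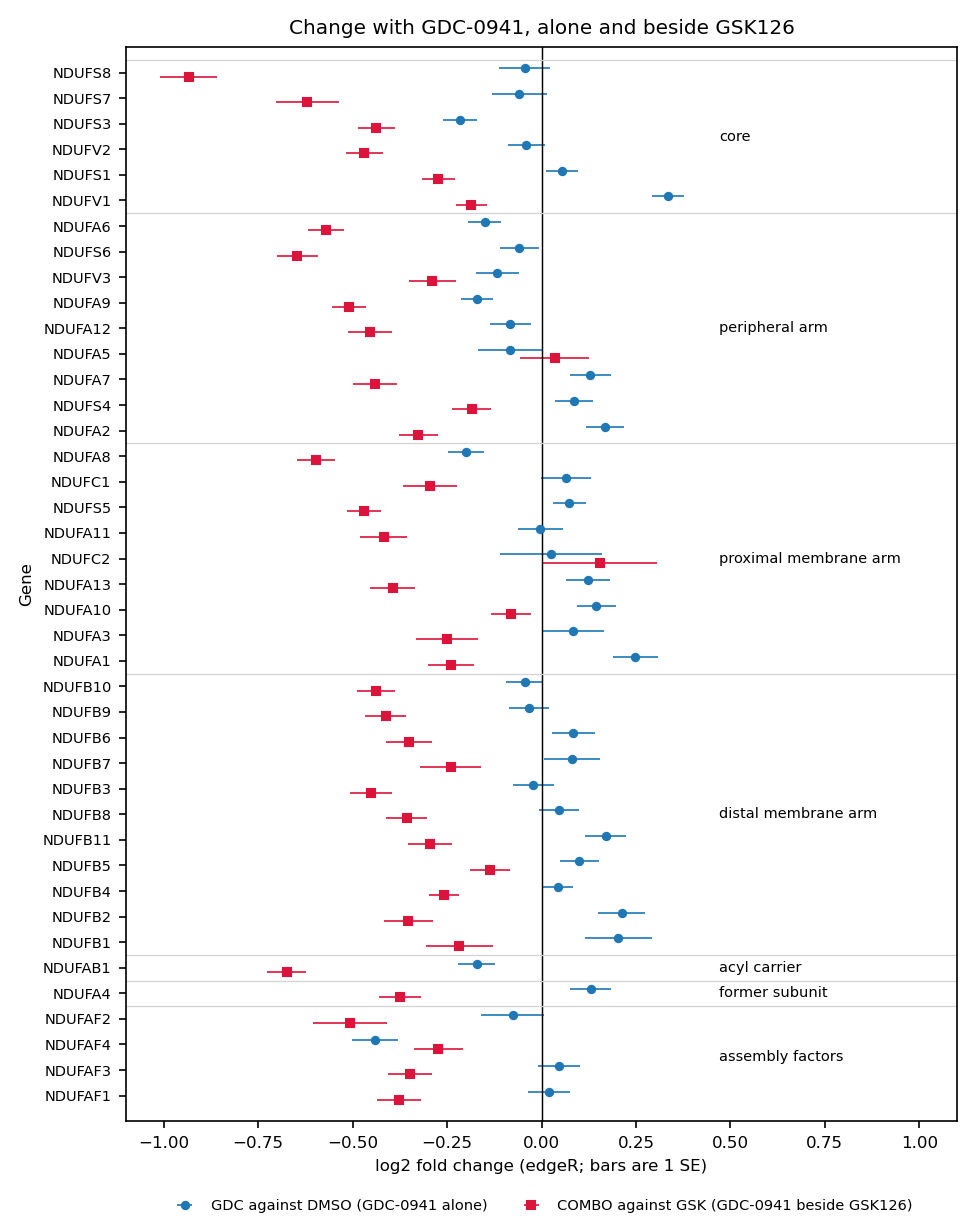
Log2 fold change (x axis, bars are 1 SE) of 41 complex I genes with GDC-0941 alone (blue circles, GDC against DMSO) and beside GSK126 (red squares, COMBO against GSK), grouped by role. The red squares lie to the left of the blue circles in 38 of them, and NDUFA5, NDUFC2 and NDUFAF4 are the exceptions.

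The interaction was below 0 in 38 of 42 members by the test and above 0 in none, where 16.5% of all tested genes were called below and 4.86% above. Its median was -0.41, compared with -0.063 over all tested genes. By role it was called in 7 of 7 core subunits, 7 of 9 subunits of the peripheral arm, 8 of 9 of the proximal and 11 of 11 of the distal membrane arm, in NDUFAB1, in NDUFA4 and in 3 of 4 NDUFAF genes. The exceptions were NDUFA5 (0.12), NDUFC2 (0.13), NDUFAF4 (0.17) and NDUFV3 (-0.17). NDUFS8 departed most from the sum, by -0.89 (SE 0.10, adjusted p = 3.01e-06), and NDUFS6 came next, by -0.59 (SE 0.074, adjusted p = 1.03e-05).

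The departure varied less among the named genes than the COMBO change itself. NDUFV1, which was flat in COMBO against DMSO, had an interaction of -0.52 (SE 0.059, adjusted p = 3.06e-06), and NDUFA2 of -0.49 (SE 0.073, adjusted p = 5.86e-05). NDUFB2 and NDUFA4 were at -0.56 and -0.51, and NDUFAB1, which fell most but for NDUFS8, at -0.50. For NDUFV1 and NDUFA2 the single-agent changes were positive and COMBO did not keep them, while for NDUFAB1 they were negative and COMBO went further. The number of interaction calls was 29 to 37 without any 1 library, 31 with DESeq2 or no filter and 35 with library totals, and 29 of the 38 calls passed in all 18 alternatives run for it. Of the named genes, NDUFA10 and NDUFAF2 were among those that did not. The share of all tested genes called below 0 moved too. It was 8.86% to 9.93% without DMSO A or C, any 1 GDC library, GSK A, GSK B or COMBO A, 11.5% to 15.7% without any other library, and 6.62% with no filter. The share called above 0 was 8.26% without DMSO B, 7.70% without COMBO A, 8.73% with a mean CPM filter of 1 and 8.22% with no filter. The median of the members less that of all tested genes was -0.35, and it ranged from -0.37 to -0.32 over the 18 alternatives.

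Other mitochondrial lists were measured in the same way to place these values. Among 34 genes of complexes III, IV and ATP synthase, 25 fell and 3 rose in COMBO (median -0.59), and the interaction was called below 0 in 33 (median -0.48). Among 6 genes of complex II and its assembly factors, 5 fell in COMBO (median -0.60) and 3 had an interaction below 0, with SDHD, a membrane anchor, and SDHB, an iron-sulfur subunit, at -1.09 and -1.08 in COMBO. All 75 tested genes of the mitochondrial ribosome fell in COMBO (median -0.90), and the interaction was called below 0 in 22 of them (median -0.14). Of the 16 other assembly factors, 5 had an interaction below 0 (median -0.13), compared with 38 of 42 members. These are counts beside each other, and no difference between lists was tested.

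The 12 genes listed as regulators of mitochondrial biogenesis included 5 that were lower in GDC (median -0.12), 10 in GSK (median -0.57) and 9 in COMBO (median -0.66), and none was higher in any of these arms. The interaction was called in 1 gene, GABPA, an ETS factor of respiratory genes, with a value above 0 (0.39 (SE 0.13, adjusted p = 0.0344)). TFAM, which packages and transcribes mitochondrial DNA, changed by -0.22 in GDC, -1.29 in GSK and -1.39 in COMBO, and the coactivator PPARGC1B by -0.11, -1.24 and -1.27. NRF1, the respiratory factor whose motif is among those searched, was at -0.67 in GSK and -0.69 in COMBO, and YY1 at -0.53 and -0.40. All of these values in GSK and COMBO passed the test.

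**Figure D4:**
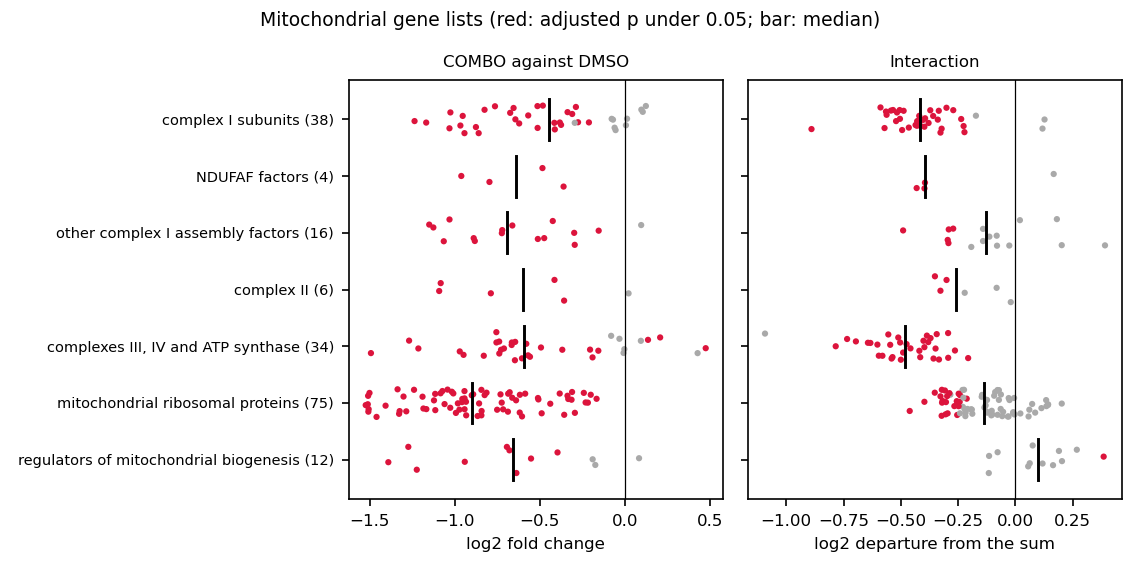
Each point is a tested gene of a mitochondrial list, placed by its log2 fold change in COMBO against DMSO (left) or its interaction (right); red points had an adjusted p under 0.05 and black bars are list medians. The 38 complex I subunits center at -0.45 on the left and -0.42 on the right, the 75 mitochondrial ribosomal genes center at -0.90 on the left and -0.14 on the right, and the regulators center above 0 on the right.

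The sequence around the start sites was read for 36 of the 42 members, those matched by symbol in a RefSeq table of promoters (GRCh38.p14, 250 bases before to 50 bases after the start). The most frequent difference from other promoters was the YY1 motif AAGATGGC (either strand), found in 7 of 36 members (19.4%) and in 4.31% of 14526 promoters of the same length. In all 7 members it stood on the strand of the gene, starting 11 to 26 bases after the start site. The motif holds the letters ATG, the usual start codon of translation. Where translation starts in these genes was not checked, and its part in the shared strand and position was not tested. The windows of 28 bases below are shown for this shared position, with the motif in capitals.
NDUFA3 chr19:54102866-54102893 (+ strand): cgcggagacaAAGATGGCtgcgagtaag
NDUFA6 chr22:42090730-42090757 (- strand): atgctttggcAAGATGGCggggagcggc
NDUFA7 chr19:8321344-8321371 (- strand): tcgcggacggAAGATGGCgtccgccacc
NDUFA9 chr12:4649114-4649141 (+ strand): attgtgggaaAAGATGGCggctgccgca
NDUFB8 chr10:100529837-100529864 (- strand): gaagaaggtgAAGATGGCggtggccagg
NDUFS4 chr5:53560650-53560677 (+ strand): tgcctgcagcAAGATGGCggcggtgtca
NDUFS7 chr19:1383914-1383941 (+ strand): ggccgaggccAAGATGGCggtgctgtca

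The NRF1 motif (GCGCA, any base, then GCGC, on either strand) was found in 6 of 36 members (16.7%), compared with 9.13% of promoters. In NDUFA3 and NDUFB4 it occurred at more than 1 place, and in NDUFA8 as overlapping copies across the start site. One site of each of 4 of these genes is shown, with the motif in capitals, because they include genes on both sides of the COMBO call. NDUFA8 and NDUFA12 fell in COMBO (-0.88 and -0.76), NDUFB4 fell by less (-0.21), and NDUFA3 did not pass the test (0.098).
NDUFA3 chr19:54102676-54102703 (+ strand): tgcgcgagtGCGCACGCGCaggctccga
NDUFA8 chr9:122159765-122159792 (- strand): ttgccggatGCGCATGCGCaggcgccgt
NDUFA12 chr12:95003795-95003822 (- strand): cctagctctGCGCACGCGCagagccacc
NDUFB4 chr3:120596168-120596195 (+ strand): gagcacttcGCGCATGCGCatatcaccg

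The other motifs were near the share of all promoters: the ETS core CCGGAAG in 6 members (16.7% against 15.1%), the SP1 box GGGCGG in 24 (66.7% against 62.7%) and the E-box CACGTG in 3 (8.33% against 8.94%), each on either strand. The median COMBO change was -0.38 in the 7 members with the YY1 motif and -0.48 in the 29 without it, and -0.59 in the 6 with the NRF1 motif and -0.48 in the 30 without it. Members with and without a motif overlapped in all these values. A match of letters is a description of the window and not a binding site.

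For part of the members the counts carry an uncertainty of assignment. By GENCODE 44, 21 of the 42 genes have named pseudogenes, with 12 each for NDUFA5 and NDUFB4, and 7 share exonic bases with another listed gene, most of all NDUFA2 (27.4%), NDUFB9 (23.9%, with TATDN1) and NDUFC2 (22.3%). Whether the counting used strand was not given in the sources used here. The remaining 17 genes had neither limit, among them NDUFS8, NDUFV1, NDUFA6, NDUFA10 and NDUFAF1.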

How the data were processed

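RNA of 12 C4.2B cultures was sequenced by the authors, aligned to hg38 with STAR and counted per gene with HTSeq. The deposited files hold raw counts, 1 whole number for each gene symbol. Tool versions, the annotation and strand use were not given in the sources used here. Per the file headers, 5 summary lines follow the genes (reads outside genes, ambiguous, not unique and others); they stayed out of library sizes and tests, with 67.6% to 75.8% of reads in genes on average per arm. A deposited table of counts that the authors normalized with DESeq2 was not used.

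In R 4.3.3, edgeR 4.0.16 served for the main test (glmQLFit and glmQLFTest, quasi-likelihood) after TMM scaling and filterByExpr (14189 of 23228 genes), in 1 fit of all 12 libraries with 1 coefficient per arm, two-sided, with Benjamini-Hochberg adjustment over all tested genes and a threshold of 0.05. The common biological coefficient of variation was 0.0499. CPM (counts scaled to a fixed library size) rest on TMM effective library sizes unless total gene counts are named. Replicates differed by more than sampling noise (chi-square per degree of freedom 1.80 to 6.60). A count of 0 allows up to 3 counts. The SE of each log2 change was derived from the F statistic of the test, so it includes the fitted spread between libraries. The fit was also run on simulated counts in which a small set of genes changed in COMBO, equally up and down. That run cannot check the choice of scaling, because its changes were balanced.

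Library letters were checked for pairing by the correlation of deviations from the arm mean. Same-letter pairs of GDC and COMBO correlated at 0.14 to 0.36. The main fit left the letters out for every comparison, and they entered only as a replicate block among the alternatives. All other same-letter pairs correlated at -0.25 to 0.21. Pairs with different letters ran from -0.33 to 0.28, so these ranges overlapped. The labels do not say what a letter marks. Counts, sums and medians cover all 42 members, and the single values of 1 member are not reported here. The members and lists were chosen with earlier results of these data known. Described in full were the member with the largest and with the smallest absolute COMBO change of each role, the genes called with the largest interactions, NDUFAB1 and NDUFA4; from the other lists, the 2 called genes with the largest COMBO change were taken, and further genes were chosen after their values were seen. Coordinates are from GENCODE 44, and promoter windows from RefSeq. As alternatives, DESeq2 1.42.0 replaced edgeR, its size factors or plain library totals replaced TMM, the filter was dropped or set to a mean CPM of 1, the fit was limited to the arms compared, the letters entered as a replicate block, and each library was left out in turn.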

Additional observations from a re-analysis of the deposited data

Results flagged for a closer look

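The effect of each agent differed with the presence of the other in 38 of 42 members, by the interaction test of edgeR (adjusted p under 0.05). All of these were below 0, where 16.5% of all tested genes were called below 0 and 4.86% above. Among the 34 genes of complexes III, IV and ATP synthase, 33 were called below 0. For the genes described in full, the interaction on the log2 scale was -0.89 for NDUFS8, -0.59 for NDUFS6, -0.56 for NDUFB2, -0.52 for NDUFV1, -0.51 for NDUFA4, -0.50 for NDUFAB1 and -0.49 for NDUFA2. It was -0.43 for NDUFAF2, -0.42 for NDUFA6, -0.40 for NDUFA8, -0.40 for NDUFAF1, -0.39 for NDUFB10 and -0.23 for NDUFA10.

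Outside the gene counts, reads that fell in no gene made up 21.8% of the reads passed to counting in COMBO on average, compared with 14.2% in DMSO. Their part in the values of complex I genes was not tested.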

How the results depend on the processing

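Of the calls among members, 7 of 12 in GDC, 18 of 31 in GSK, 28 of 32 in COMBO, 32 of 40 in COMBO against GDC, 32 of 38 in COMBO against GSK and 29 of 38 interactions passed in every alternative run. Higher calls in GDC numbered 2 with DESeq2, 3 with DESeq2 size factors, 11 with library totals, 2 with no filter and 1 to 7 without 1 library. Library totals gave 18 higher and 13 lower calls in GSK (median 0.0022), 8 higher in COMBO (median -0.28) and 1 higher in COMBO against GDC (median -0.35). In COMBO 1 member was called higher under a mean CPM filter of 1, and 0 to 1 without 1 library. For the interaction 1 was called higher with no filter, and 0 to 1 without 1 library. With TMM library sizes the summed CPM were 5133, 5210, 4740 and 3708 in DMSO, GDC, GSK and COMBO. Near 0 the sign turned: NDUFAF1 in GDC was at -0.022 with DESeq2 and with its size factors, -0.046 with no filter, -0.0115 under a mean CPM filter of 1 and -0.036 to 0.012 without 1 library. In GSK it was at -0.017 with DESeq2, -0.018 with its size factors, -0.068 with no filter and -0.030 to 0.020 without 1 library. In COMBO, NDUFA2 was at -0.023 with DESeq2, -0.024 with its size factors, -0.045 with no filter, -0.021 with only the arms compared and -0.025 to 0.025 without 1 library. NDUFA10 was at -0.018, -0.017, -0.037 and -0.014 in the same 4 fits, and at -0.039 to 0.034 without 1 library. With library totals, COMBO was at 0.15 for NDUFV1, 0.13 for NDUFB2 and 0.15 for NDUFA4, and COMBO against GDC at 0.012 for NDUFA2 and 0.041 for NDUFA10. The cause was not tested. With the replicate block, COMBO against GDC, whose same-letter libraries correlated at 0.14 to 0.36, kept 40 lower and 0 higher calls. The other comparisons had 6 higher and 6 lower (GDC), 7 and 24 (GSK), 0 and 33 (COMBO), 0 and 39 (COMBO against GSK) and 0 and 37 (interaction). The block moved no count by over 1.5 times. Precision was lowest for NDUFC2, the member with the fewest counts (91 in 1 library), whose SE was 0.13 in COMBO, and the part of depth in it was not tested.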
